A study of Mus musculus with 11 samples.

Results

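The comparison described here set 3 libraries of 4-thiouridine-labelled RNA (4sU RNA) against 3 libraries of total RNA from myoblasts that received a hairpin against Zc3h10, 6 of the 11 libraries of the series. The cells were C2C12, an established mouse line of myoblasts, the precursors of muscle. They were infected at a multiplicity of infection of 100 with an adenovirus whose U6 promoter drove a short hairpin RNA whose target is Zc3h10, which encodes a CCCH zinc finger protein. Confluent cells received 300 µM of 4-thiouridine for 30 min, and the biotin-coupled labelled RNA was pulled down with streptavidin as the 4sU RNA. A small portion of the harvest gave the total RNA, from which ribosomal RNA was removed. Whether the 4sU RNA was depleted in the same way is not stated, and an effect of such a difference on the ratio cannot be told apart from labelling. Control cells carried the same kind of virus with a scrambled hairpin and gave 2 libraries of 4sU RNA and 3 of total RNA, which enter here for contrast. All libraries were made with random primers, not by selection of poly(A) tails. The 6 libraries were chosen by the hairpin in the name of each deposited table.

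4-Thiouridine is a uridine analogue that cells build into RNA while they transcribe it, so the labelled fraction is enriched for RNA made during the pulse. A short-lived transcript is replaced quickly and has a large share of newly made molecules, whereas a stable transcript that has built up over hours or days has a small one. The ratio of labelled to total RNA is therefore used here as a measure of turnover. The part of transcript length and uridine number in it was not tested. The ratio is relative, because the usual scaling of libraries sets the typical gene near an equal level in both fractions. It gives no half-life in hours, and a low ratio alone does not show that a transcript is stable. Fewer cells and less RNA per cell cannot be told apart in bulk libraries of this kind.

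The 3 tables of total RNA named for the Zc3h10 hairpin belong to samples whose titles and genotype labels name the scrambled hairpin, and the reverse holds for the other 3 tables of total RNA. Zc3h10 (Entrez 103284), the target, followed the names of the tables. Its exonic level, in counts per 1000000 (CPM) scaled across all 11 libraries, was 51.3, 66.0 and 37.6 in the total RNA libraries labelled scramble and 94.0, 157 and 95.6 in those labelled shZc3h10. In 4sU RNA, where labels and table names agree, it was 9.76, 13.6 and 9.45 CPM with the Zc3h10 hairpin and 16.3 and 15.0 CPM with the scrambled one. Within each fraction the libraries named for the Zc3h10 hairpin were the lower ones, with no overlap. The main comparison follows the table names, so its total RNA consists of the libraries labelled total scramble replicates 1 to 3, called total RNA replicates 1 to 3 below. Each result that turns on this choice is also given with the total RNA libraries labelled shZc3h10, called by label below.

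The 4sU RNA libraries held 10369374 to 14675113 exonic and 26272902 to 35259076 intronic counts each. The total RNA libraries held 31058706 to 47854862 exonic and 6007028 to 12213901 intronic counts. Introns took 71.1%, 71.7% and 70.2% of the counts in the 3 libraries of 4sU RNA and 15.3%, 16.2% and 21.9% in total RNA. The fractions did not overlap, and total RNA replicate 3 stood above the other two. An exact two-sided permutation test gave p = 0.1, the smallest value that 3 against 3 libraries allow. Replicates differed by more than sampling noise, with a chi-square per degree of freedom between 10.95 and 262 for exons and between 10.9 and 32.9 for introns.

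Exons of 13818 genes were tested, and 8819 of them (63.8%) differed between 4sU RNA and total RNA at an adjusted p below 0.05 (edgeR's quasi-likelihood test, Benjamini-Hochberg adjustment). They split into 4397 higher in 4sU RNA (31.8% of tested genes) and 4422 lower (32%). A difference of at least 2-fold was reached by 3228 genes upward (23.4%) and 3198 downward (23.1%). The median log2 ratio over all genes was 0.01, with 10% of genes below -1.76 and 10% above 1.94. The 3 libraries of one fraction all lay above those of the other for 34.9% of genes upward and 33.3% downward. Scaling by library totals alone moved that median to 0.52 and the split to 6192 higher and 2637 lower. Upper-quartile scaling moved it to 0.17, with 5084 higher and 3852 lower, and dropping the low-count filter moved it to -0.16. Each ratio below is therefore a position relative to the other genes. Where a class median moved by over 1.5 times with the other total RNA libraries or without 1 library, the moved value stands beside it. With the total RNA libraries labelled shZc3h10, 4840 genes were higher and 4893 lower. Of the 13730 genes tested both ways, 7668 were called both times (87.1% of the calls by table name and 80.1% of those by label), 7616 of them in the same direction and 52 in opposite directions.

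The gene classes formed a continuous order. Exonic counts of called members below are to be read beside the 31.8% of all tested genes that were higher and the 32% that were lower. Leaving aside the marker lists of other cell types, small RNA genes, nuclear non-coding RNAs, chromatin regulators and immediate early genes stood at the top, and lysosomal, ribosomal protein and histone genes at the bottom. The plot of class levels by library shows this order. The place of small RNA genes in it may depend on their reads being scaled as exons, as described below. For histones and ribosomal proteins the total RNA libraries were more spread than the 4sU RNA libraries.

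**Figure D1:**
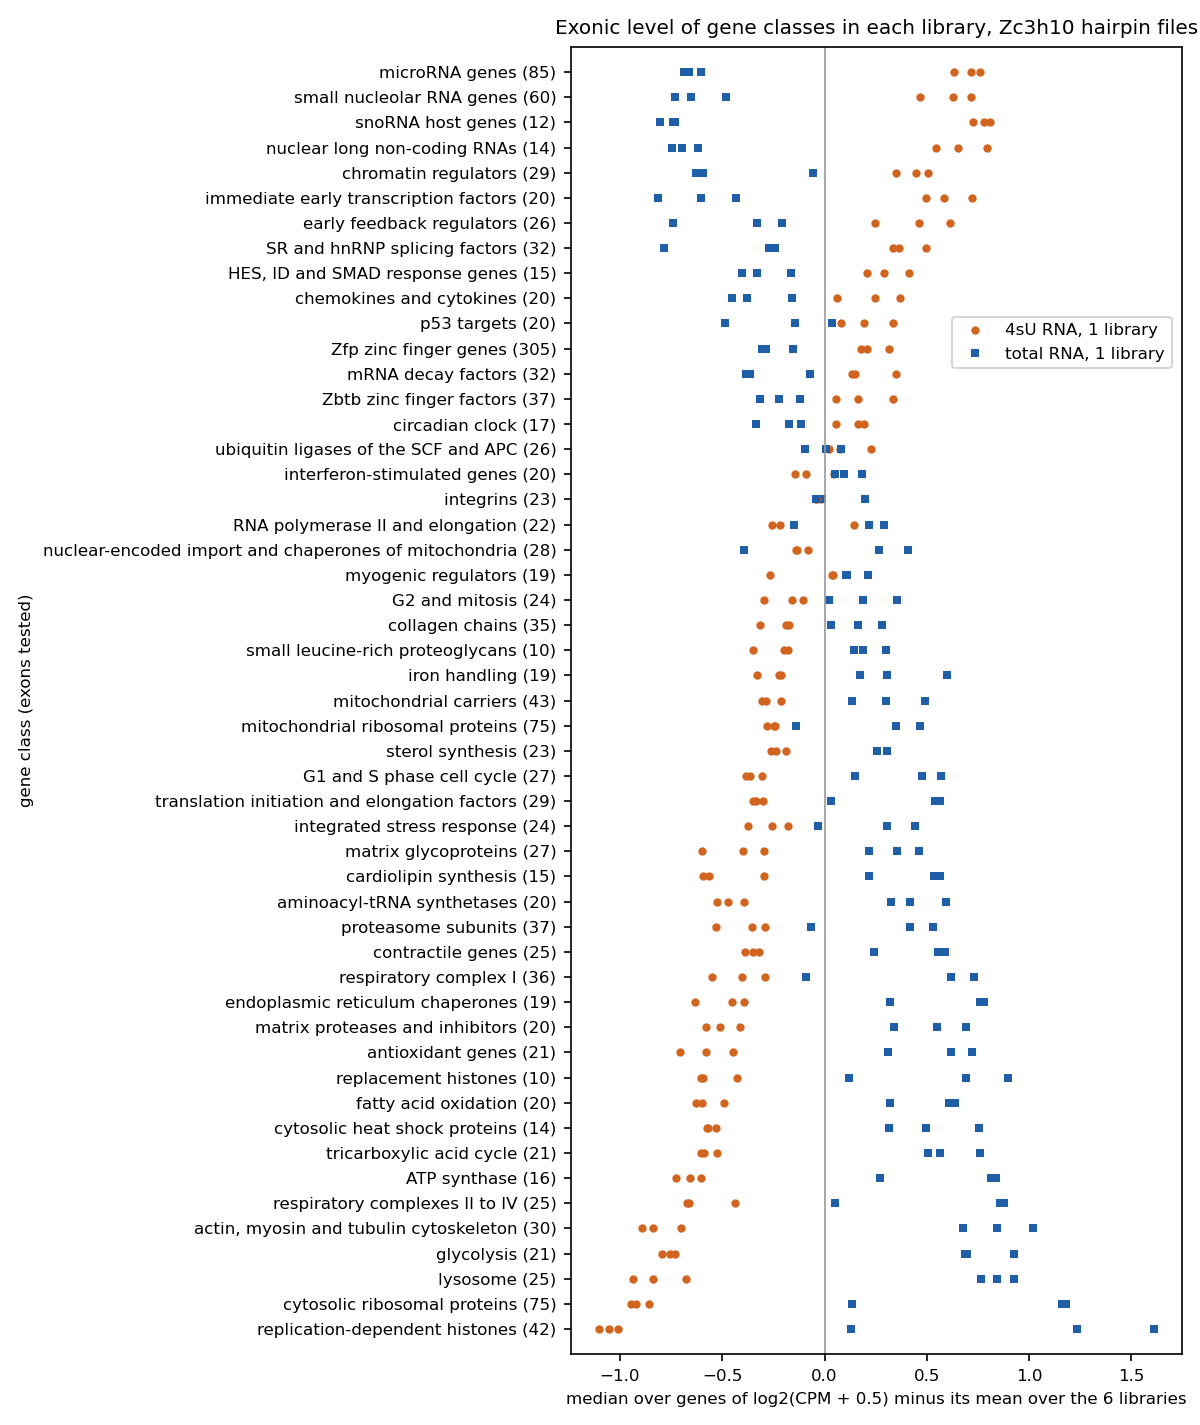
Exonic level of each gene class in the 3 libraries of 4sU RNA (circles) and the 3 of total RNA (squares): the x axis is the median over the class's tested genes of log2(CPM + 0.5) after subtracting each gene's mean over the 6 libraries, and classes are sorted by their median log2 ratio. Circles lie to the right of squares for microRNA genes (ratio 2.49) and to the left for replication-dependent histones (ratio -3.27), where total RNA replicate 2 lies at 0.13 and the other 2 libraries at 1.61 and 1.23.

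Epm2aip1, whose product binds laforin, the phosphatase of glycogen metabolism, had the widest upward ratio among well-expressed genes whose libraries did not overlap. Its exonic level was 594, 428 and 619 CPM in 4sU RNA and 20.9, 22.7 and 34.5 CPM in total RNA, a log2 ratio of 4.39 (SE 0.28, adjusted p = 2.96e-07). Rel, a subunit of NF-κB, was at 66.2, 64.0 and 61.8 CPM against 5.34, 3.80 and 4.54 CPM (log2 ratio 3.80, SE 0.23, adjusted p = 2.48e-07). Tcf7l1 and Tcf7l2, the transcription factors at the end of Wnt signalling, had log2 ratios of 3.81 and 3.58, Klf7, a Krüppel-like factor, 3.61, and Zbtb34 3.74. Htr2b, a serotonin receptor, reached 3.63 and Vamp2, a SNARE protein of vesicle fusion, 3.53.

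Dnm3os, a long non-coding RNA that carries the hairpins of miR-199a-2 and miR-214, had the most counts of the 10. It stood at 3229, 2113 and 2769 CPM in 4sU RNA and at 254, 218 and 193 CPM in total RNA, a log2 ratio of 3.61 (SE 0.27, adjusted p = 3.28e-07). The fractions lay far apart, with little spread inside each. The mature microRNAs cut from it were not measured. Their RefSeq sequences are shown because they are cut from this host RNA of high ratio, with the seed (bases 2 to 8) in capitals. They lie on the plus strand of chromosome 1 of GRCm38.p6, miR-199a at 162217844-162217866 (5p) and 162217883-162217904 (3p), and miR-214 at 162223397-162223418 (5p) and 162223438-162223459 (3p). The 4 seeds differ from one another.
mmu-miR-199a-5p: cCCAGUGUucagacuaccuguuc
mmu-miR-199a-3p: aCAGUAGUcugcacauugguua
mmu-miR-214-5p: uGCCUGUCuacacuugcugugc
mmu-miR-214-3p: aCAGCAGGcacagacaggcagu

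At the other end, Tmem132a, a transmembrane protein gene, was at 60.2, 55.9 and 43.7 CPM in 4sU RNA and 1487, 2252 and 903 CPM in total RNA (log2 ratio -4.86, SE 0.35, adjusted p = 3.16e-07). Ahcy, which hydrolyses S-adenosylhomocysteine after methylation reactions, had a log2 ratio of -4.60, and Mmp2, the matrix gelatinase, -4.01. Ppic, a cyclophilin, reached -3.98, Rcn3, a calcium-binding protein of the endoplasmic reticulum, -3.97, and Mgst3, a microsomal glutathione transferase, -4.06. Rpph1, the RNA subunit of RNase P, which trims the 5′ end of transfer RNAs, was at 1.91, 3.17 and 2.68 CPM against 86.7, 14.1 and 113 CPM (log2 ratio -4.79, SE 0.59, adjusted p = 8.49e-06). Total RNA replicate 2 was the lowest of its group for Rpph1 and the highest for Tmem132a.

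**Figure D2:**
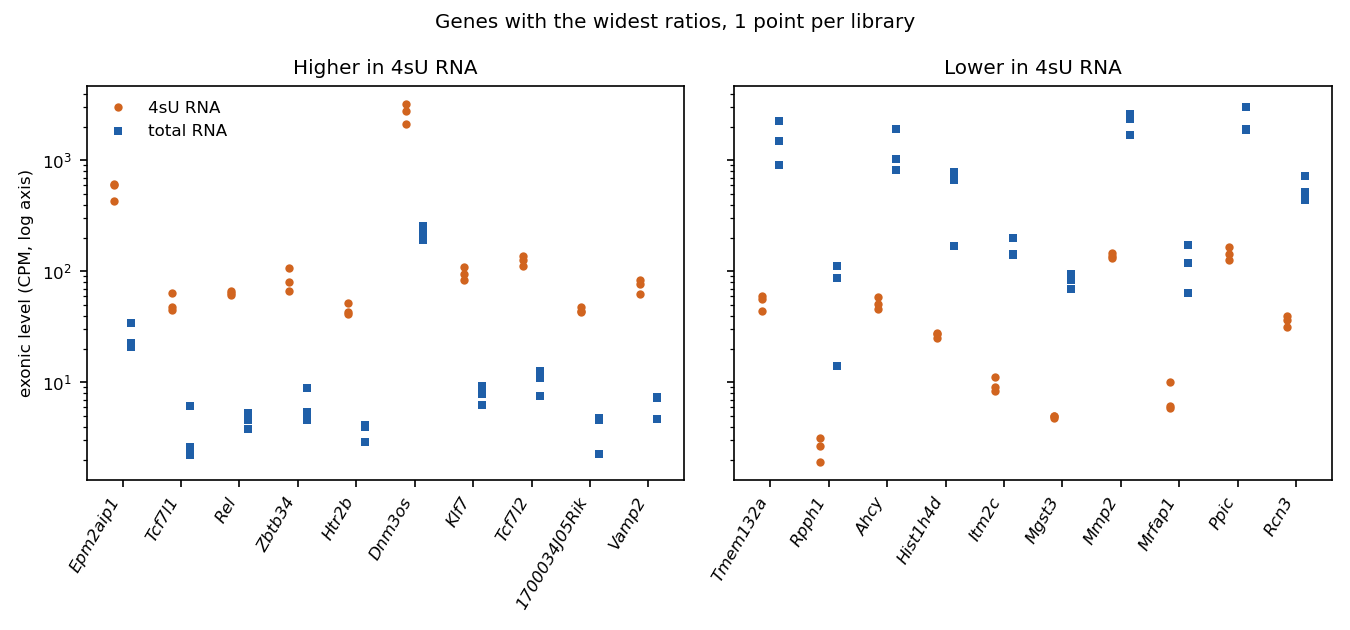
Exonic level (CPM, log axis) of the 10 genes highest and the 10 lowest in 4sU RNA by the naming rule, 1 point per library, circles for 4sU RNA and squares for total RNA. Epm2aip1 runs from 20.9 to 34.5 CPM in total RNA and from 428 to 619 CPM in 4sU RNA, and no gene shown has overlapping fractions.

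Immediate early genes are switched on within minutes of a stimulus without new protein synthesis and are known for mRNAs that decay just as quickly. Of 20 tested immediate early transcription factors, 12 were higher in 4sU RNA and 1 was lower, beside 31.8% and 32% of all genes, and the class median was 0.96. Egr1, the zinc finger factor that responds to serum, was at 1843, 2485 and 2728 CPM in 4sU RNA against 302, 159 and 226 CPM in total RNA (log2 ratio 3.36, SE 0.30, adjusted p = 7.35e-07). Nr4a3, an orphan nuclear receptor, stood at 5.56, 3.17 and 3.48 CPM against 0.317, 0.397 and 0.0499 CPM (log2 ratio 4.06, SE 0.53, adjusted p = 1.45e-05). Fosb and Egr3 followed with 3.16 and 2.77. Junb, a partner of Fos proteins, was the exception, at 31.6, 35.5 and 30.0 CPM in 4sU RNA and 179, 58.5 and 98.2 CPM in total RNA (log2 ratio -1.79, SE 0.32, adjusted p = 0.000227).

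The feedback regulators induced with them had the same direction. Among 26 tested, 16 were higher and the others were not called (median 0.78). Spry4, an inhibitor of receptor tyrosine kinase signalling, was at 41.4, 65.1 and 68.6 CPM against 6.05, 6.80 and 9.997 CPM (log2 ratio 2.94, SE 0.27, adjusted p = 1.02e-06). Dusp1, the phosphatase that switches off MAP kinases, reached 1.97, a call not made with the total RNA libraries labelled shZc3h10 (0.88, adjusted p = 0.156), and the antiproliferative genes Btg2 and Btg1 reached 1.88 and 1.67. Of 20 chemokines, cytokines and growth factors, 9 were higher and 3 lower (median 0.61, or 1.23 by label), led by Lif at 2.35, Il11 at 2.31 and Ereg, a ligand of the EGF receptor, at 2.14. Of 15 targets and inhibitors of Notch, BMP and TGF-β signalling, 8 were higher and 4 lower (median 0.62, 0.27 by label and 0.39 without total RNA replicate 2). Skil, a repressor of SMAD proteins, had a log2 ratio of 2.30, Snai1, the repressor of E-cadherin, 2.14 and Smad7, an inhibitory SMAD, 0.95, while Sertad1 stood at -2.42.

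Short-lived mRNAs of this kind often carry AU-rich elements in the 3′ untranslated region (UTR), where decay factors bind. The heptamer TATTTAT was searched on the transcript strand of 1 transcript per gene from GENCODE vM21 (GRCm38), and it may overlap itself or the pentamer ATTTA. It was present in 11 of the 16 named genes that were higher in these 4 classes, beside 27.8% of 12939 tested coding genes. The 16 are the members with the widest upward ratios in lists chosen with earlier results known. Their share is therefore not a test of a link between heptamer and ratio, and the other list members were not counted. Nr4a3 had 2 copies, Dusp1 3, Lif 5 and Il11 6, while Egr1, Egr3, Btg1, Ctgf and Bhlhe40 had 0. One site each is shown for the orphan receptor, the phosphatase and the 2 cytokines of the interleukin-6 family, with the heptamer in capitals. The Nr4a3 site lies at chr4:48084754-48084782 on the plus strand and the Dusp1 site at chr17:26506159-26506187 on the minus strand. The Lif site lies at chr11:4270469-4270497 on the plus strand and the Il11 site at chr7:4773502-4773530 on the minus strand, all in 3′ UTRs of GRCm38.
Nr4a3: agctttgcctgTATTTATtgcaagaccac
Dusp1: gagctggtcctTATTTATttaacaccccc
Lif: gcacagctgtcTATTTATtactatgtcct
Il11: aaaccagatctTATTTATttatttatttt

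Over all coding genes, transcripts higher by at least 2-fold in 4sU RNA held the heptamer in 33.7% of cases. Those lower by at least 2-fold held it in 17.1% and the other genes in 30.3%. The median 3′ UTR had 1200 bases in the higher group, 665.5 in the lower group and 1110.5 in the other genes. The median transcript had 3389, 2248.5 and 3330.5 bases. In the last 300 bases of the 3′ UTR, a window of fixed length, the shares were 12.3%, 7.57% and 11.4%. In each of these measures the higher group lay closer to the other genes than the lower group did. Spearman's rho of the log2 ratio across these genes was 0.251 with transcript length, 0.181 with 3′ UTR length, 0.264 with the number of T bases and 0.0583 with the number of exons. Genes are not independent replicates, so no test is attached. A longer transcript holds more uridines that can take up the label, and the part of that in the ratio was not tested. Within each quintile of 3′ UTR length the genes with the heptamer had the higher median, as the plot by UTR length shows. In the quintile with the shortest 3′ UTRs the medians were -0.14 with and -0.37 without it, and in the quintile with the longest they were 0.53 and 0.18. Transcripts were matched for 88.6% of genes higher by at least 2-fold and 98.9% of those lower.

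**Figure D3:**
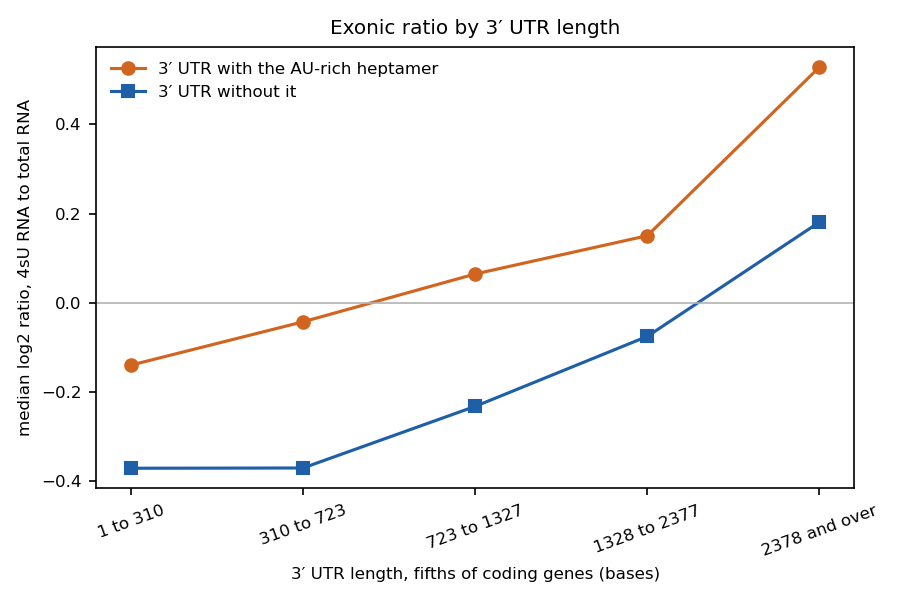
Median log2 ratio of exonic 4sU RNA to total RNA (y axis) in quintiles of 3′ UTR length (x axis, bases), for coding genes whose 3′ UTR holds the AU-rich heptamer (circles) or does not (squares). The medians run from -0.14 to 0.53 with the heptamer and from -0.37 to 0.18 without it.

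Non-coding RNAs that act or are processed in the nucleus had high ratios. Small nucleolar RNAs (snoRNAs) guide the chemical modification of ribosomal RNA, and many are encoded within introns of host genes. Such host genes were higher in 9 of 12 cases, and the others were not called (median 1.60). Snhg3 was at 24.1, 28.4 and 35.0 CPM in 4sU RNA against 3.51, 2.65 and 3.22 CPM (log2 ratio 3.21, SE 0.25, adjusted p = 4.51e-07), and Snhg1 reached 2.35. Of 14 nuclear long non-coding RNAs, 10 were higher and 1 was lower (median 1.39). Jpx, an activator of Xist, was at 37.8, 35.7 and 33.5 CPM against 2.83, 3.88 and 3.42 CPM (log2 ratio 3.41, SE 0.24, adjusted p = 3.13e-07). Kcnq1ot1, the imprinted antisense RNA that silences its neighbours, had a log2 ratio of 2.41, Rian, a host of snoRNAs and microRNAs, 3.26 and Dleu2, the host of miR-15a and miR-16-1, 1.77. H19, an imprinted non-coding RNA that is exported to the cytoplasm, was the lower one, at 191, 309 and 161 CPM against 565, 622 and 815 CPM (log2 ratio -1.60, SE 0.27, adjusted p = 0.000148).

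Genes listed as small RNAs, counted and scaled as exons, had higher medians still. Of 60 tested snoRNA genes 46 were higher and the others not called (median 2.06). Of 85 tested microRNA genes, host transcripts with such symbols included, 75 were higher and 2 lower (median 2.49). The others of the 97 snoRNA and 510 microRNA genes in the files were too low to test. Snord93 was at 25.9, 22.5 and 23.1 CPM against 1.46, 1.37 and 1.20 CPM (log2 ratio 4.15, SE 0.25, adjusted p = 2.48e-07). In RefSeq all 60 snoRNA genes and 70 of the 85 microRNA genes lie inside another gene, so reads of the mature small RNA and of the host's precursor cannot be told apart. Over 55 pairs of snoRNA gene and host, the small RNA had a median ratio of 2.09, the host's exons 0.43 and its introns -0.31. Over 53 pairs with microRNA genes, these medians were 3.11, 0.27 and 0.65. Exonic and intronic ratios are each scaled to their own kind of count, so the gap between a small RNA gene and its host's introns depends on that scaling and is not read as a difference. As far as these reads come from host introns, the place of small RNA genes above the other classes depends on that scaling too. That part was not tested.

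Chromatin regulators were higher in 19 of 29 cases and lower in 4 (median 1.00). Tet3, an enzyme that oxidises methylcytosine, reached a log2 ratio of 2.56, the remodellers Chd2 and Chd1 2.43 and 2.04, and the demethylase Kdm5a 1.73. Among SR and hnRNP splicing factors, which regulate one another's and their own splicing, 17 of 32 were higher and 4 lower (median 0.77, or 0.51 without total RNA replicate 2), with Hnrnpa3 at 2.48, Srsf4 at 2.23 and Hnrnpl at -1.998. Zinc finger genes of the Zfp series were higher in 136 of 305 cases and lower in 41 (median 0.47), and Zbtb factors in 17 and 6 of 37 (median 0.35). Factors of mRNA decay were themselves higher in 16 of 32 cases and lower in 4 (median 0.41, or 0.26 without total RNA replicate 2), led by Lsm1, which binds deadenylated mRNA, at 2.44.

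Genes of RNA polymerase II lay on both sides. Of 22 tested subunits and elongation factors 8 were higher and 9 lower, not far from the 31.8% and 32% of all genes. The class median of -0.25 was -0.42 without 4sU replicate 2 and changed sign with library totals alone. Polr2a, the catalytic subunit, was at 714, 801 and 736 CPM in 4sU RNA and 53.1, 49.8 and 125 CPM in total RNA (log2 ratio 3.30, SE 0.34, adjusted p = 1.98e-06). The small subunits lay at the other side, with Polr2c at -3.14, Polr2d at -2.52 and Polr2g at -2.11. Of 20 tested targets of p53, 10 were higher and 7 lower (median 0.55, or 0.26 by label). Pmaip1, the inducer of apoptosis called Noxa, was at 1.58 but lost its call with the total RNA libraries labelled shZc3h10 (0.33, adjusted p = 0.375). Ccng1 and Sesn1 were at -3.17 and -2.53. Circadian clock genes were higher in 7 of 17 cases and lower in 3, beside the same shares of all genes. Cry2 was at 1.30, Per1 at 1.22 and Dbp at -2.74. Per1 was not called with the other total RNA libraries (0.44, adjusted p = 0.096).

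Replication-dependent histones had the lowest median of all classes, -3.27, with 35 of 42 tested genes lower and 1 higher. These mRNAs serve the S phase of the cell cycle and end in a stem-loop in place of a poly(A) tail. Hist1h2bm was at 0.359, 0.465 and 0.342 CPM in 4sU RNA and 16.6, 3.66 and 16.4 CPM in total RNA (log2 ratio -4.99, SE 0.57, adjusted p = 4.64e-06). Hist1h4d, at 28.0, 24.9 and 27.2 CPM against 665, 171 and 779.5 CPM, had a log2 ratio of -4.33 (SE 0.44, adjusted p = 2.08e-06). Total RNA replicate 2 was the lowest of its group in both cases, and so it was in the class median. Without it the class median was -3.64, and with the total RNA libraries labelled shZc3h10 it was -2.35. Hist3h2a was the higher member, at 5.80, 3.95 and 4.56 CPM against 1.85, 1.72 and 1.70 CPM (log2 ratio 1.44, SE 0.30, adjusted p = 0.000682). Near-identical copies within the histone clusters make the split of reads between members uncertain.

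The histone stem-loop motif, 16 bases long, was searched on the transcript strand after the coding sequence and was found in 28 of the 42 tested histone genes (66.7%) and in 14 of 13070 other coding genes (0.107%). The 28 had a median log2 ratio of -3.17 and the 14 without a match -3.43. A missing match can come from the annotated transcript end or the fixed pattern, so it does not show that a stem-loop is absent. These medians therefore do not tell whether the ratio depends on the stem-loop. Sites of members of the 4 core histone families among the lowest ratios are shown, with the matched letters in capitals. All lie in 3′ UTRs of GRCm38, Hist1h2ab at chr13:23751565-23751594 (plus strand), Hist1h2bm at chr13:21722499-21722528 (plus), Hist1h3a at chr13:23761883-23761912 (minus) and Hist1h4d at chr13:23581943-23581972 (plus).
Hist1h2ab: aaacaaaGGCTCTTTTCAGAGCCacccaca
Hist1h2bm: acacaaaGGCTCTTTTCAGAGCCactaagc
Hist1h3a: aaccaaaGGCTCTTTTCAGAGCCacacacg
Hist1h4d: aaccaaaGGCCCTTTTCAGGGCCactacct

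Replacement histones, made outside S phase and mostly from polyadenylated mRNAs, were lower in 7 of 10 cases and higher in 2 (median -1.18), with H1f0 at -2.91 and H2afz at -2.51. Of 27 cell cycle genes of G1 and S phase 17 were lower and 3 higher (median -0.62, or -1.59 by label). Pcna, the sliding clamp of DNA replication, was at 30.8, 29.5 and 37.2 CPM against 129, 121 and 125 CPM (log2 ratio -1.94, SE 0.20, adjusted p = 2.36e-06).

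Cytosolic ribosomal proteins, the building blocks of the ribosome and classic examples of stable mRNAs, were lower in 63 of 75 cases and higher in 1 (median -1.96). Rplp0, of the ribosomal stalk, was at 139, 129 and 139.7 CPM in 4sU RNA and 1682, 1478 and 1201 CPM in total RNA (log2 ratio -3.42, SE 0.24, adjusted p = 3.16e-07). Rpl8, Rpsa and Rpl4 followed at -3.34, -3.30 and -3.17. Rps15a was the exception, at 55.7, 63.6 and 52.6 CPM against 19.1, 15.3 and 22.8 CPM (log2 ratio 1.59, SE 0.22, adjusted p = 2.38e-05). In total RNA replicate 2 the class stood at 0.13 on the centred log2 scale and in the other 2 at 1.16 and 1.18. The class median was -2.17 without that library and -1.25 with the total RNA libraries labelled shZc3h10. Ribosomal protein genes have many processed pseudogenes, so their counts are uncertain. Eef1a1, the elongation factor that brings aminoacyl-tRNA to the ribosome, was at 723, 714 and 664 CPM against 6403, 9433 and 6788 CPM (log2 ratio -3.43, SE 0.27, adjusted p = 4.71e-07), and translation factors as a class were lower in 17 of 29 cases and higher in 5.

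The study concerns mitochondria, iron and cardiolipin, a signature phospholipid of mitochondria, and genes of these systems were examined in turn. Respiratory complex I had 23 of 36 genes lower and 1 higher (median -0.97, or -0.63 by label), complexes II to IV 19 of 25 lower and 1 higher (median -1.41), and the ATP synthase 12 of 16 lower and 1 higher (median -1.31). Sdhc, a membrane anchor of succinate dehydrogenase, was at 39.1, 30.6 and 40.1 CPM in 4sU RNA against 408, 594 and 419 CPM (log2 ratio -3.69, SE 0.25, adjusted p = 3.13e-07). Atp5b, the catalytic β subunit of the ATP synthase, was at 703, 566 and 842 CPM against 4414, 4402 and 3342 CPM (log2 ratio -2.53, SE 0.26, adjusted p = 2.20e-06). Ndufs8 and Ndufv1, of the iron-sulphur arm of complex I, had log2 ratios of -3.24 and -2.83. For complex I the class level in total RNA replicate 2 (-0.09) lay far from the other 2 libraries (0.62 and 0.73), as it did for complexes II to IV (0.05 against 0.86 and 0.88).

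Fuel metabolism was similar. The tricarboxylic acid cycle had 18 of 21 genes lower and the others not called (median -1.25), fatty acid oxidation 16 of 20 lower and 1 higher (median -1.19) and glycolysis 17 of 21 lower and the others not called (median -1.61). Pdhb, of the pyruvate dehydrogenase complex, was at -2.50, Hadha, of the trifunctional protein of fatty acid oxidation, at -2.97, and Tpi1, the triose phosphate isomerase, at -2.94. Mitochondrial ribosomal proteins were less uniform, with 36 of 75 lower and 11 higher (median -0.57). Mrps21 stood at -3.90 and Mrpl35 at 1.88. Timm9, a chaperone of the space between the mitochondrial membranes, was at 75.5, 77.2 and 79.1 CPM against 11.2, 7.81 and 10.2 CPM (log2 ratio 2.99, SE 0.22, adjusted p = 3.28e-07). The import class with Timm9 had 8 of 28 genes lower and 2 higher, with a median of -0.33 that was -0.19 without total RNA replicate 3 and changed sign with library totals alone and by label (0.08).

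Mitochondrial carriers, which move metabolites across the inner membrane, were lower in 21 of 43 cases and higher in 13 (median -0.56), with the citrate carrier Slc25a1 at -3.16.

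Iron genes were lower in 9 of 19 cases and higher in 3 (median -0.52, which changed sign with library totals alone). Tfrc, the transferrin receptor, whose mRNA is stabilised when iron is scarce, was at 72.3, 52.96 and 68.6 CPM in 4sU RNA against 229.9, 319 and 185 CPM (log2 ratio -1.92, SE 0.25, adjusted p = 1.28e-05). Ftl1, the ferritin light chain that stores iron, had a log2 ratio of -2.05, and the carriers Slc25a28 (mitoferrin-2) and Slc39a14 stood at 1.08 and 1.06. Slc25a28 was not called with the total RNA libraries labelled shZc3h10 (0.56, adjusted p = 0.0519). Genes of cardiolipin synthesis and of its transport and binding were lower in 9 of 15 cases and higher in 3 (median -0.90, or -0.49 by label). Prelid1, which carries phosphatidic acid to the inner membrane, was at 114, 105 and 114 CPM against 1527, 2254 and 1155 CPM (log2 ratio -3.89, SE 0.29, adjusted p = 3.28e-07). Crls1, the cardiolipin synthase itself, was at 7.05, 7.28 and 6.16 CPM against 3.39, 2.16 and 5.24 CPM (log2 ratio 0.91, SE 0.31, adjusted p = 0.0204). That call was lost in the fit of all 11 libraries (adjusted p = 0.0643) and when 1 library was left out in 3 cases, 4sU replicate 1 (adjusted p = 0.0656), 4sU replicate 2 (0.0703) or total RNA replicate 1 (0.073).

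In sterol synthesis 12 of 23 genes were lower and 4 higher. Srebf1, a transcription factor of lipid synthesis, was at -2.73, and Fdft1, the squalene synthase, at -2.19. Antioxidant genes were lower in 14 of 21 cases and higher in 2 (median -1.08), with Nqo1 at -3.85 and Gpx4, the peroxidase for membrane lipids, at -3.22.

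Systems that fold and degrade proteins had both kinds of member. Proteasome subunits were lower in 22 of 37 cases and higher in 3 (median -0.93), with the ATPase Psmc4 at -2.28 and the subunit Psma7 at -1.95. Psmb11, the thymus-specific catalytic subunit, was a higher member, at 18.4, 21.0 and 15.7 CPM in 4sU RNA against 2.37, 1.90 and 1.99 CPM (log2 ratio 3.13, SE 0.25, adjusted p = 4.76e-07). Subunits of the SCF and APC ubiquitin ligases, which mark cell cycle proteins for that proteasome, were higher in 9 of 26 cases and lower in 6 (median 0.25, or 0.56 by label). The shares over all genes were 31.8% and 32%. Skp2, an F-box protein that chooses substrates, was at 162, 154 and 158 CPM against 37.3, 28.2 and 34.7 CPM (log2 ratio 2.24, SE 0.21, adjusted p = 9.94e-07). Skp1a, the adaptor to which F-box proteins bind, was at 80.3, 79.3 and 88.1 CPM against 918, 1510.5 and 861 CPM (log2 ratio -3.73, SE 0.28, adjusted p = 3.28e-07). The 2 partners of one complex thus stood on opposite sides.

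Cytosolic heat shock proteins were lower in 11 of 14 cases and higher in 1 (median -1.19), with Hspb8 at -2.73 and the constitutive chaperone Hspa8 at -2.06, and Dnajb4 at 1.72. Aminoacyl-tRNA synthetases, which load amino acids onto transfer RNAs, were lower in 14 of 20 cases and higher in 2 (median -0.91). The integrated stress response was lower in 11 of 24 cases and higher in 4 (median -0.69, or -1.21 by label). Its secreted hormone Fgf21 stood at -3.17 and the biosynthetic enzymes Psat1 and Asns at -2.65 and -1.73, whereas its transcription factors Cebpg and Ddit3 (CHOP) stood at 1.95 and 1.20. In the G2 and mitosis class 11 of 24 were lower and 6 higher, with the kinase Aurkb at -1.92 and the survivin gene Birc5 at 2.00, and the median of -0.48 was -1.001 by label and changed sign with library totals alone.

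Structural and secreted proteins of the myoblast were low in 4sU RNA. Genes of the actin, myosin and tubulin cytoskeleton were lower in 27 of 30 cases and higher in 3 (median -1.52). Tubb5, the main β-tubulin, was at 863, 864 and 867 CPM against 5752, 6526 and 4678 CPM (log2 ratio -2.71, SE 0.25, adjusted p = 1.00e-06). Myh9, a non-muscle myosin, was a higher member, at 2058, 2064 and 1734 CPM against 831, 590.3 and 893 CPM (log2 ratio 1.34, SE 0.24, adjusted p = 0.000246). Lysosomal genes were lower in 23 of 25 cases and not called in the others (median -1.82), with Psap, the precursor of the saposins, at -2.93 and Ctsd, an acid protease, at -3.06. Endoplasmic reticulum chaperones were lower in 13 of 19 cases and not called in the others (median -0.998), led by P4hb, the protein disulphide isomerase, at -3.06.

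Matrix glycoproteins were lower in 16 of 27 cases and higher in 1 (median -0.85). Sparc, a secreted collagen-binding protein, was at 2445, 2083 and 2875 CPM in 4sU RNA and 9974, 11004 and 8152 CPM in total RNA (log2 ratio -1.98, SE 0.26, adjusted p = 1.68e-05). Matrix proteases and inhibitors, a separate class, were lower in 13 of 20 cases and higher in 3 (median -1.03). Timp3, an inhibitor of matrix proteases, was a higher member of it, at 2.08. Serpinh1, the collagen chaperone HSP47, which is not among the matrix glycoproteins, stood at -3.77. Collagen chains were mixed, 14 lower and 9 higher of 35, and their median of -0.49 changed sign with library totals alone and by label (0.50). Among these, Col6a2 was at -2.11 but lost its call with those libraries (-0.70, adjusted p = 0.141). Fmod and Aspn, small proteoglycans of the collagen fibril, had log2 ratios of -1.07 and -1.06 by table name and of 2.50 and 1.31 by label.

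The labelled cell type was checked against its markers. All 10 myoblast markers were tested, and their summed exonic level was 1098 to 1214 CPM in 4sU RNA and 2265.5 to 3299.9 CPM in total RNA. Des, the muscle intermediate filament, was at 114, 114 and 88.0 CPM against 1214, 1248 and 788 CPM (log2 ratio -3.36, SE 0.26, adjusted p = 4.67e-07). The myogenic factor Myf5 was at -1.37, and 5 of the 10 markers were lower and 1 was higher (median -0.95). Myog, not on that list, was at -1.58. Of 19 tested myogenic regulators 7 were lower and 2 higher, and their median of -0.35 changed sign with library totals alone and by label. Contractile genes, which belong to later differentiation, were lower in 16 of 25 cases and higher in 3 (median -0.97), with Acta1, skeletal actin, at -2.11 and the perinatal myosin Myh8 at 2.36. The sums that follow are over tested members only. Of the endothelial markers 2 of 8 reached testing over exons, and these 2 summed to 4.73 to 6.81 CPM in 4sU RNA and 1.32 to 2.60 CPM in total RNA. Macrophage markers, 4 of 8 tested, summed to 21.7 to 24.3 CPM and 7.03 to 8.88 CPM. Osteoblast markers, 4 of 8 tested, summed to 145 to 182 CPM and 35.5 to 72.9 CPM, and adipocyte markers, 3 of 9 tested, to 330.05 to 385 CPM and 156 to 173 CPM. The part of such cells or genes in the class ratios was not tested. Ptprc, Lyz2 and Adgre1 of macrophages and Pecam1, Cdh5 and Kdr of endothelium were too low to test.

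Intronic counts are taken here as a measure of RNA that has not been spliced, and other sources of such counts were not tested. Of 14174 genes with intronic counts tested, 9168 (64.7%) were called. Of these, 4323 were higher in 4sU RNA (30.5%) and 4845 lower (34.2%), 1345 by at least 2-fold upward (9.49%) and 3907 downward (27.6%). The median log2 ratio was -0.14 and moved to -0.48 with upper-quartile scaling and to -0.59 with library totals alone, which left 2242 genes higher. Restricted to the 11963 genes with tested exons it was 0.12, with 4303 higher and 3114 lower, so neither its sign nor the larger direction held throughout. The upward count of at least 2-fold was 2115 without total RNA replicate 3, the library with the highest intron share, and 2435 with the total RNA libraries labelled shZc3h10. The downward class was of low level: its median intron level was 1.27 CPM in 4sU RNA and 6.02 CPM in total RNA, and 1697 of its 3907 genes (43.4%) had too few exonic counts to be tested. It included introns of some genes of other cell types, but the marker lists were not alike. All 8 endothelial markers were lower (median -2.62, summed 7.78 to 13.3 CPM in 4sU RNA and 28.3 to 95.8 CPM in total RNA), and 5 of 6 macrophage markers (median -2.19, summed 5.92 to 8.40 and 13.1 to 28.7 CPM). Introns of osteoblast markers were 2 higher and 2 lower of 5 (median 0.42). Those of adipocyte markers were 2 higher and 1 lower of 4 (median 0.39). Both of these medians changed sign under some alternatives. With genes lacking tested exons left out, 2207 genes were lower by at least 2-fold.

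Introns of chromatin regulators were higher in 19 of 27 cases and lower in 2 (median 0.73), and those of mRNA decay factors in 19 and 7 of 32 (median 0.78). Introns of complex I genes were higher in 15 of 34 cases and lower in 7 (median 0.54), and those of the tricarboxylic acid cycle in 11 and 4 of 21 (median 0.48). These 4 medians kept their sign under every alternative tried. Ribosomal protein introns went the other way, with 52 of 73 lower and the others not called (median -1.30), as did introns of contractile genes, 14 of 22 lower and 2 higher (median -1.01), and of collagen chains, 21 of 40 lower and 8 higher (median -0.74, or -0.38 without total RNA replicate 2). Naca, of the nascent polypeptide complex on the ribosome, had the widest upward intron ratio by the naming rule, at 312, 259 and 299.6 CPM against 47.2, 26.9 and 45.9 CPM (log2 ratio 2.85, SE 0.20, adjusted p = 2.64e-05). Psmc2, a proteasomal ATPase, followed at 2.74. Downward, Boll had the widest ratio by that rule, at 1.22, 1.92 and 0.541 CPM against 67.6, 23.9 and 40.85 CPM (log2 ratio -5.19, SE 0.49). A230050P20Rik followed at -3.98, and Atp2b2 and Prdm16 were at -3.92 and -3.91. Tnfrsf12a, the receptor of the cytokine TWEAK, was at 7.33, 6.87 and 5.96 CPM against 127, 90.2 and 89.2 CPM (log2 ratio -3.93, SE 0.19, adjusted p = 4.17e-06).

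The exonic ratio was then set against the intronic ratio of the same gene. This compares spliced and unspliced RNA across the fractions only as far as intronic counts measure unspliced RNA. Of 11963 genes tested, 7399 (61.8%) were called, and 4164 had an exonic ratio above their intronic ratio (34.8%) and 3235 below (27%), each scaled to its own kind of count, with a median difference of 0.17. When exons and introns shared 1 library total, the median was -2.57, with 330 above and 10246 below. A gene's difference is therefore a position among genes, as in the plot of class medians. Immediate early factors stood above in 15 of 18 cases (median 1.72) and feedback regulators in 13 of 20 (median 1.48), and the others of both classes were not called. With the shared total both medians were below 0, as were those of nearly all genes.

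Lysosomal genes stood below in 20 of 25 cases (median -1.45) and the tricarboxylic acid cycle in 15 of 21 (median -1.20, or -1.92 by label), with the others not called. Complex I genes stood below in 18 of 34 cases and above in 1 (median -1.07, or -0.66 by label). The intron medians of these classes were 0.12, 0.48 and 0.54, of which that of lysosomal genes fell below 0 with other scalings and with total RNA by label. Ribosomal proteins were low in both kinds of count, so their difference was small (median -0.38, 26 below and 17 above of 73) and changed sign by label (0.22). Egr3 had a difference of 4.46 (SE 0.33, adjusted p = 6.35e-07), from an exonic ratio of 2.77 and an intronic ratio of -1.45. Taf1d, a subunit of the RNA polymerase I factor SL1 and host of snoRNAs, had 4.33, from 1.41 and -2.71. Mrps21, of the small mitochondrial ribosomal subunit, had -4.52 (SE 0.39, adjusted p = 1.56e-06), from -3.90 and 0.89. Polr1d, a subunit of RNA polymerases I and III, had -4.10, from -3.50 and 0.87. Genes with no intronic entry in the files, 616 of those tested over exons, had a median exonic log2 ratio of 0.93, with 314 higher and 130 lower. The 13202 with an intronic entry had a median of -0.02, with 4083 higher and 4292 lower. How many of the 616 are small RNA genes already described was not counted.

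**Figure D4:**
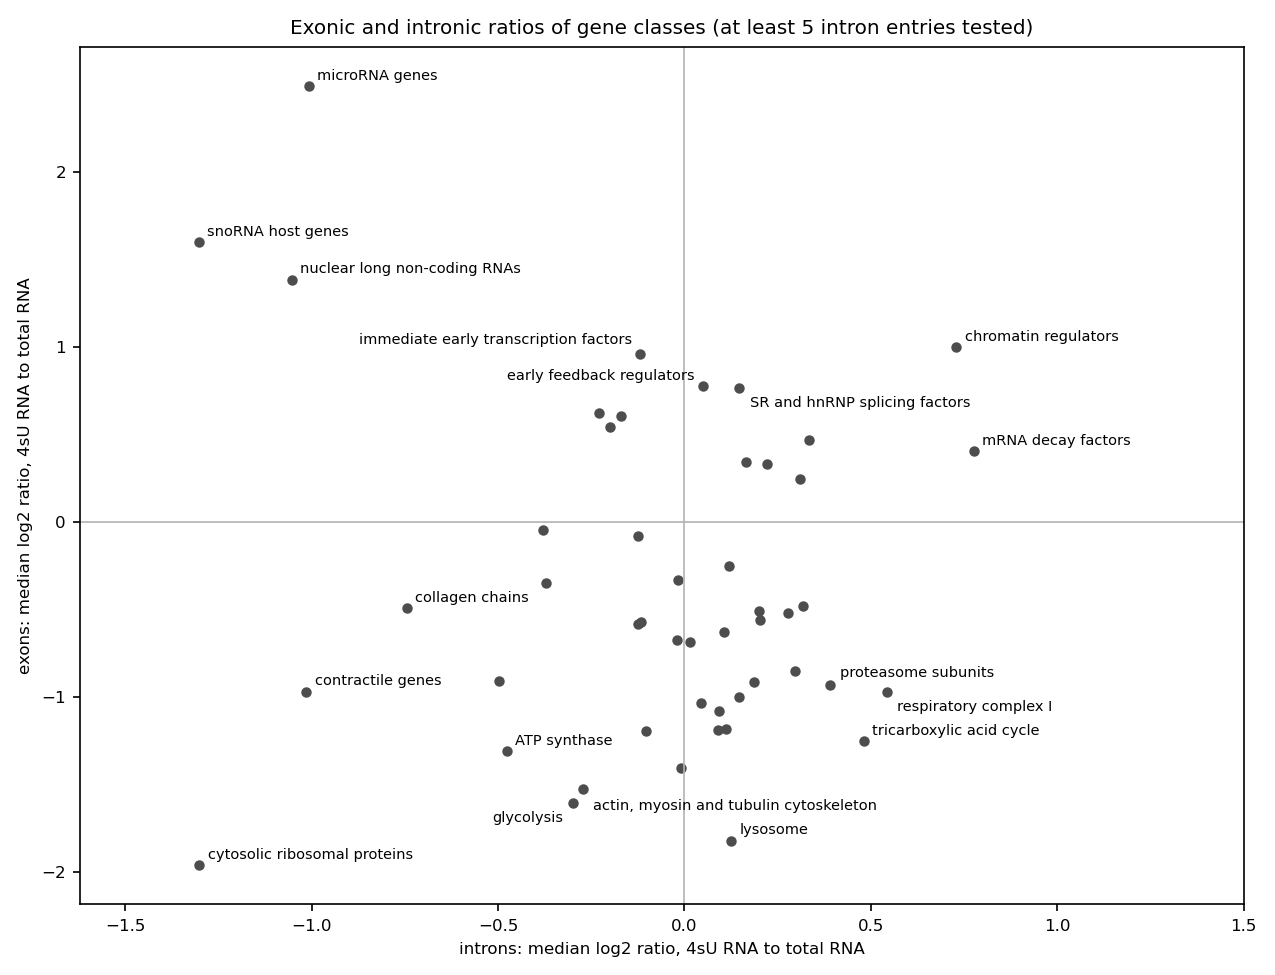
Median log2 ratio of 4sU RNA to total RNA over introns (x axis) and over exons (y axis) for each gene class with at least 5 tested intron entries, 1 point per class. Ribosomal proteins lie at the lower left (-1.30 and -1.96), lysosomal genes lie low at an intron median of 0.12 (below 0 with other scalings or with total RNA by label), and snoRNA host genes lie at the upper left (-1.30 and 1.60).

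Zc3h10 itself was a gene of low ratio under its own hairpin. Its exonic level, scaled over the 6 libraries, was 10.997, 15.5 and 10.5 CPM in 4sU RNA and 56.2, 73.7 and 41.1 CPM in total RNA, a log2 ratio of -2.21 (SE 0.26, adjusted p = 6.41e-06). With the total RNA libraries labelled shZc3h10 the ratio was -3.39. Its introns, at 1.70, 1.41 and 2.03 CPM against 18.6, 20.7 and 13.1 CPM, had a log2 ratio of -3.34 (SE 0.30, adjusted p = 4.44e-05). The exonic ratio lay above the intronic one by 1.34 (SE 0.27, adjusted p = 0.000941), and below it by 1.40 (log2 difference -1.40) with the shared library total.

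Whether these ratios depended on the hairpin was tested in 1 fit of all 11 libraries, as the ratio under the Zc3h10 hairpin minus that under the scrambled one, by table name. Of 15046 genes, 0 (0%) were called by edgeR's quasi-likelihood test, with 1707 (11.3%) at an unadjusted p below 0.05 and a lowest adjusted p of 0.291. DESeq2 called 16 genes higher and 0 lower, with an adjusted p withheld for 12543 genes. Without total RNA replicate 2, edgeR called 116 higher and 72 lower. The median SE of a gene's difference was 0.41 on the log2 scale, so the precision limits what could be called, including differences of 2-fold and somewhat above. With the total RNA grouped by label, 835 genes were higher (5.55%) and 1288 lower (8.56%). Zc3h10 had a difference of 0.65 (adjusted p = 0.525) by table name and of -1.68 (adjusted p = 0.00677) by label.

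Under the scrambled hairpin by table name, 8946 of the 15046 genes (59.5%) differed between the fractions, 29.4% higher and 30.1% lower. Across genes the ratios under the hairpins ran together, with a Spearman's rho of 0.891 over 15046 genes that share no library between the 2 ratios. Most classes lay near the diagonal of the plot of both hairpins. Lysosomal genes had medians of -1.85 and -1.86 under the Zc3h10 and the scrambled hairpin, and microRNA genes 2.49 and 2.72. Replication-dependent histones were at -3.26 and -1.83, ribosomal proteins at -2.003 and -1.32, complexes II to IV at -1.44 and -0.92, and cardiolipin genes at -0.94 and -0.37. Iron genes and genes of G1 and S phase lay on the other side, at -0.41 against -0.89 and -0.65 against -1.14. No member of any of these classes was called, and the difference of class medians was not tested.

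**Figure D5:**
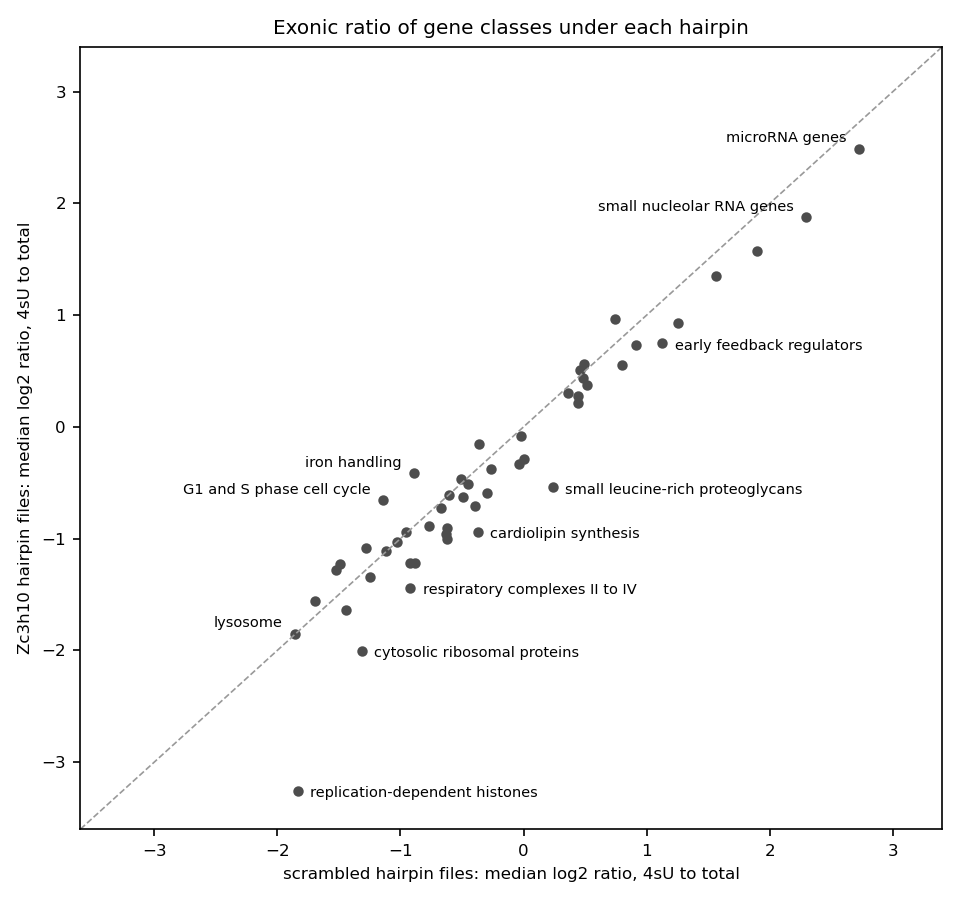
Median exonic log2 ratio of 4sU RNA to total RNA of each gene class under the scrambled hairpin (x axis) and the Zc3h10 hairpin (y axis), by table name, 1 point per class, with the line of equal ratios dashed. Replication-dependent histones lie farthest below the line, at -1.83 and -3.26, and lysosomal genes lie on it.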

How the data were processed

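RNA was measured in C2C12 myoblasts as 4sU RNA and total RNA, with exonic and intronic tables for each of 11 libraries (22 files). The deposited values are raw read counts per gene, with Entrez identifiers and symbols per the file headers. Per the submitters' processing notes the authors used TopHat2 2.0.8, TopHat and the mouse build mm9. For the counting program, the annotation and the use of strand the sources used here give nothing, so overlapping, antisense and near-identical genes have uncertain counts. The labels do not tell whether replicates are separate cultures. The p-values therefore reflect library-to-library spread alone, and that spread may be technical.

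Counts were filtered with filterByExpr (minimum count 10, minimum total 15), scaled with TMM factors and tested with edgeR 4.0.16 (quasi-likelihood, R 4.3.3), with Benjamini-Hochberg adjustment and calls below 0.05. CPM are counts per 1000000 of the scaled library size, and SEs derive from the F statistic. Exons against introns were fitted with the library as a blocking term (pseudocount of 0.5 CPM in per-library ratios), and the hairpin difference in 1 fit of 4 group means. Fits were tested on simulated data. Alternatives were other scalings, no filter, DESeq2 1.42.0, total RNA by label, all libraries in 1 fit, a replicate block and leaving out each library. Scaling by library totals and restricting introns to genes with tested exons were added after seeing the data.

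Members and gene lists were chosen with earlier results of these data known. Besides Zc3h10, the genes named were taken from 2 sources, and not every gene of them is printed. One is the 10 widest ratios each way for exons (5 for other comparisons) among called genes at or above the median level whose libraries do not overlap. The other is up to 4 members per list in its main direction and 2 in the other. Transcript features came from GENCODE vM21 (GRCm38), small RNA positions from RefSeq (GRCm38.p6), joined by Entrez ID, and no coordinate of the files was used. Python 3.11.15 with scipy 1.17.1 was used for these steps.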

Additional observations from a re-analysis of the deposited data

Results flagged for a closer look

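When total RNA was grouped by the labels, 2123 of 15046 genes (14.1%) had a 4sU to total ratio that differed between the hairpins by edgeR's quasi-likelihood test, 835 higher and 1288 lower. When it was grouped by table name, 0 were called. What drew attention was this difference between the groups under the same contrast, which rests on which 3 libraries of total RNA are taken as the silenced cells. Zc3h10 had a difference of -1.68 (adjusted p = 0.00677) by label and of 0.65 (adjusted p = 0.525) by table name.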

How the results depend on the processing

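Of the counts of called genes, 148 values under an alternative stayed within 1.5 times the first value and 20 moved further. Library totals alone gave 2637 lower exonic genes, 4951 higher by at least 2-fold and 1774 lower by at least 2-fold, and 2242 higher intronic genes, 256 by at least 2-fold. Upper-quartile scaling gave 2780 higher intronic genes, 413 by at least 2-fold. With total RNA by label 2435 introns were higher by at least 2-fold. Only genes with tested exons gave 3114 lower introns, 2207 by at least 2-fold, by construction over fewer genes. Leaving out 1 library gave 1203 to 2115 introns higher by at least 2-fold, the most without total RNA replicate 3. A shared library total gave 330 and 10246 genes for exons above and below introns, and turned Zc3h10 to -1.40. The hairpin difference gave 6 higher and 3 lower genes without the filter, 16 higher with DESeq2, 835 and 1288 by label (Zc3h10 -1.68), and 0 to 116 higher and 0 to 72 lower when 1 library was left out, the most without total RNA replicate 2. Values of single named genes kept direction and call in 4774 cases, gained a call in 58, lost it in 64 and changed sign in 14. Class medians moved by less than the spread between libraries in 1682 cases and by more in 502. Sign changed for Zfp36l1 (0.16) and Ier5 (0.22) with library totals, for Ier5 (0.46) and Vwf (-0.05) without total RNA replicate 3 (lowest to highest with 1 library left out -0.64 to 0.46 and -0.046 to 1.14), and for Suclg1 (-0.13) without replicate 2. By label it changed for Ier5 (0.87), Cxcl5 (1.23), Uqcrq (-0.22), Fmod (2.50), Aspn (1.31), Grpel1 (-0.028) and Alpl (0.38). Apart from the restricted introns, the cause was not tested.

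Same-numbered libraries did not all deviate together (r = 0.07, -0.10 and -0.11 over exons and -0.04, 0.39 and 0.37 over introns, where 2 of 3 pairs were above 0.1), so the numbers were not taken as pairs. With the replicate number as a block 4364 exonic genes were higher and 4355 lower, intronic genes were 4658 and 5667, and the hairpin difference called 0.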
